A study of Rattus norvegicus with 32 samples.

Results

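A set of 10 genes of antioxidant defence and peroxide removal were examined in the red, oxidative portion of the tibialis anterior, a hindlimb muscle, of male Zucker rats: Hmox1, Nqo1, Gclc, Gclm, Txnrd1, Srxn1, Sod1, Sod2, Cat and Gpx4. Each gene was read from the array feature annotated to that symbol alone with the highest mean over all 32 arrays. Of the 10 listed genes, 8 had such a feature, among 14557 genes that could be read in this way. Srxn1 has no feature in the annotation used here, and Gpx4 appears only on a feature shared with 6 other genes, so neither was measured. Each of the 8 genes measured had 1 such feature, and all 8 passed the filter on dim genes.

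Of the 32 rats, 8 were lean Zucker controls and 24 were obese Zucker rats, a strain that becomes obese and insulin resistant through defective leptin signalling. The 8 lean controls and 8 obese controls ate the AIN-93G diet freely. The ALA group of 8 obese rats received that diet with 10% flaxseed oil, rich in alpha-linolenic acid. The LA group of 8 obese rats received it with 10% safflower oil, rich in linoleic acid. Both oil groups were pair-fed to the calories that the obese controls ate, while the control groups were not restricted, so any difference between an oil group and the obese controls includes the way of feeding. Rats arrived at 5 weeks of age, diets lasted 12 weeks and all rats were 18 weeks old. No lean rats were fed either oil, so an effect of the oils in lean muscle cannot be read here.

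Several of these genes are textbook targets of NRF2, a transcription factor that the adaptor protein KEAP1 marks for degradation until oxidants or electrophiles modify KEAP1. NRF2 then binds antioxidant response elements together with small MAF proteins and raises enzymes that make glutathione, recycle thioredoxin, reduce quinones and degrade haem. The other genes remove superoxide and hydrogen peroxide directly: superoxide dismutases turn superoxide into hydrogen peroxide, which catalase in peroxisomes, glutathione peroxidases and peroxiredoxins then remove. Polyunsaturated fatty acids are easily oxidised, and lipid peroxides and the aldehydes formed from them are known activators of NRF2. Oxidative muscle carries many mitochondria and is rich in superoxide dismutases and catalase. The comparisons asked whether obesity, or an oil rich in oxidisable fatty acids, raised these genes.

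Promoter windows were read for the core of the antioxidant response element, TGACNNNGC, on both strands. The windows cover 250 bases before to 50 after the transcription start in RefSeq's rat annotation (build GRCr8). Of the 8 genes measured, 7 have a window in this table, and the core was found in those of Gclm, Txnrd1 and Sod2. It lies in 12.1% of all 33469 such windows. The windows of Gclm and Txnrd1 are shown because both enzymes are textbook NRF2 targets and their core sits near the start. The core is in capitals and reads as its reverse complement.
Gclm, chr2:213031885-213032184, plus strand: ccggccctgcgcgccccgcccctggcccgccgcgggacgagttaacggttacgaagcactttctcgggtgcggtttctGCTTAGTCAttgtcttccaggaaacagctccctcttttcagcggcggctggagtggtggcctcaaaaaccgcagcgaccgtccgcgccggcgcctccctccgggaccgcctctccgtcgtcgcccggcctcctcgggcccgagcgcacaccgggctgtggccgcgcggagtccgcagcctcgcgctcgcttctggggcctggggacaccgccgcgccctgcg
Txnrd1, chr7:22755855-22756154, minus strand: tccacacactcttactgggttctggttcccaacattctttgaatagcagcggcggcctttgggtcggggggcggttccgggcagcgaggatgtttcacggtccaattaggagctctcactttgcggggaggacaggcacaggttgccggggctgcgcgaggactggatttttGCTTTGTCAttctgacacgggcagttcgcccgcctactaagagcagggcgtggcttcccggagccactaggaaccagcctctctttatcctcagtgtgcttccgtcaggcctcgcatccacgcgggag
In Gclm the first base of the match lies 172 bases before the start, and in Txnrd1 78 bases before it. The second Txnrd1 window, at chr7:22764802-22765101, holds no match. The match in Sod2, GCAGGGTCA, lies 35 bases before the start of the window's transcript on chr1:50050119-50050418, minus strand. The windows of Nqo1, Gclc, Sod1 and Cat hold none within these 300 bases. None of the 3 matches overlaps the AP-1 motif TGANTCA, which lies in 7.33% of all windows. A match in a window of this length is a description of the sequence and no record of binding.

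None of the 8 genes was called between lean and obese rats, between either oil and the obese diet control, or between the oils. Values are the authors' RMA log2 intensities, on which a difference of 1 is a 2-fold change, and levels are not compared between genes because their probes differ. Tests were limma's moderated tests over 10918 genes, adjusted by Benjamini-Hochberg within a comparison, with 0.05 as the threshold for a call. Between obese and lean controls, 1.76% of all genes were called and 0 of the 8. Against the obese controls, 0% of all genes were called with either oil or with both oils together, and 0% between the oils. Against the lean controls, 0.888% of genes were called in the ALA group and 1.62% in the LA group, and again 0 of the 8. At an unadjusted p below 0.05, Cat was the only one of the 8 to pass in obese against lean controls, where 14.8% of all genes did so. Cat also was the only one to pass against lean controls in the ALA group, where 9.32% of all genes did, and in the LA group, where 13.5% did. Txnrd1 was the only one to pass in ALA rats against obese controls, where 8.41% of genes did, in LA rats against them, where 6.25% did, and with both oils together, where 7.35% did. No gene of the 8 passed even the unadjusted threshold between the oils, where 6.94% of all genes did.

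**Figure D1:**
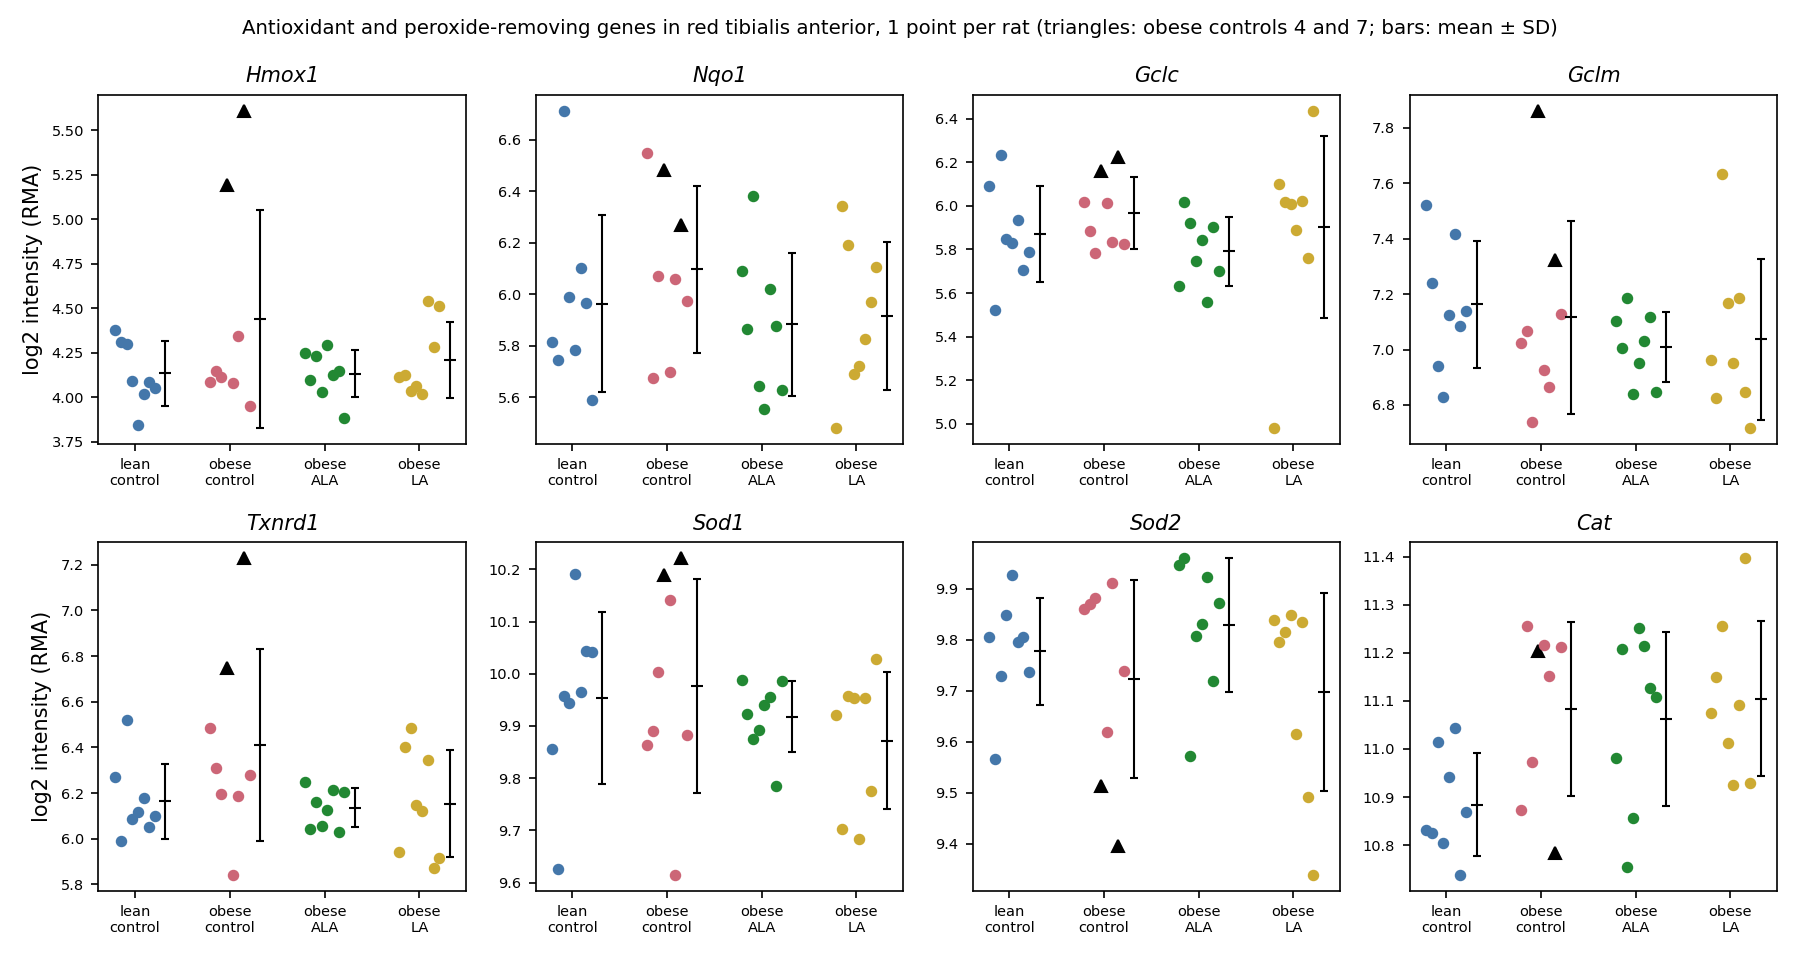
Log2 intensity (RMA, vertical axis) of each of the 8 genes in each of the 32 rats, by group; bars give the mean and SD of 8 rats, and black triangles mark obese controls 4 and 7. The groups overlap in every panel, those 2 obese controls hold the highest Hmox1 and Txnrd1 values, and Cat in lean controls stays at or below 11.04.

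Hmox1 encodes haem oxygenase 1, which degrades haem to biliverdin, carbon monoxide and iron and is among the most inducible NRF2 targets. Its lowest, median and highest values were 3.84, 4.09 and 4.38 in lean controls and 3.95, 4.13 and 5.61 in obese controls. They were 3.89, 4.14 and 4.29 in ALA rats and 4.02, 4.12 and 4.54 in LA rats. The 4 medians lay between 4.09 and 4.14, and the upper end of the obese controls came from 2 rats. The obese control mean, 4.44 ± 0.61 (SD, n = 8), exceeded the lean mean, 4.13 ± 0.18, by 0.31 (95% interval -0.020 to 0.63; limma adjusted p = 0.371). It exceeded the ALA mean by as much, the ALA minus control difference being -0.31 (-0.64 to 0.018; adjusted p = 0.603). The LA minus control difference was -0.23 (-0.56 to 0.096; adjusted p = 0.852). Each of these intervals includes 0.

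The excess of Hmox1 in obese controls came from rats 4 and 7, at 5.19 and 5.61. The other 6 obese controls lay between 3.95 and 4.35, and the other 30 rats of the study between 3.84 and 4.54. Without those 2 rats the obese minus lean difference was -0.012 (95% interval -0.20 to 0.17; adjusted p = 0.972). Rat 7 alone moved it most: without that rat the difference was 0.14.

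Txnrd1 encodes the cytosolic thioredoxin reductase, a selenoprotein that keeps thioredoxin reduced, and its promoter window holds the core shown above. Its lowest, median and highest values were 5.99, 6.11 and 6.52 in lean controls and 5.84, 6.30 and 7.23 in obese controls. They were 6.03, 6.14 and 6.25 in ALA rats and 5.87, 6.13 and 6.49 in LA rats. The obese controls reached both below and above the other groups. Their mean, 6.41 ± 0.42 (SD, n = 8), exceeded the lean mean of 6.16 ± 0.17 by 0.25 (95% interval -0.0046 to 0.50; adjusted p = 0.348). The ALA mean was 6.14 ± 0.085, and its difference from the obese controls was -0.27 (-0.53 to -0.024; limma adjusted p = 0.56). The LA mean was 6.15 ± 0.24, with a difference of -0.26 (-0.51 to -0.0051; limma adjusted p = 0.795). Both oil groups share these 8 obese controls, so the 2 differences are not separate evidence.

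Obese controls 4 and 7 again were highest of all 32 rats for Txnrd1, at 6.75 and 7.23, and the other 30 rats reached 6.52 at most. Without them the obese minus lean difference was 0.053 (95% interval -0.14 to 0.25; adjusted p = 0.873). With both oils together, the difference from the obese controls was -0.27 with all rats (limma adjusted p = 0.598) and -0.072 without the 2 rats (limma adjusted p = 0.998). Obese control 5 held the lowest value of its group and of the study, 5.84. Without rat 5 the obese minus lean difference was 0.33 (limma adjusted p = 0.16).

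Both rats also stood apart in genes of regenerating or denervated fibres. The mean over the 7 measured genes of that list was 7.75 in rat 4 and 7.97 in rat 7, where the other obese controls ranged from 5.55 to 5.73. The mean over 12 macrophage genes was 6.11 and 6.30 in these rats and 5.37 to 5.78 in the remaining 6. That mean was higher still in LA rat 7, at 6.52, where Hmox1 was 4.28 and Txnrd1 was 5.87. In lean control 2 the fibre list stood at 7.59, its Hmox1 was 4.31, in a lean range of 3.84 to 4.38, and its Txnrd1 was 5.99, the lowest of the lean rats. Obese control 5, lowest for Txnrd1, had a mean of 9.02 over 3 hepatocyte genes, with 3.86 to 4.62 in the rest of its group. The part of these other cells and fibres in the Hmox1 and Txnrd1 values was not tested. In whole muscle, more cells of a type and more RNA per cell cannot be told apart.

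**Figure D2:**
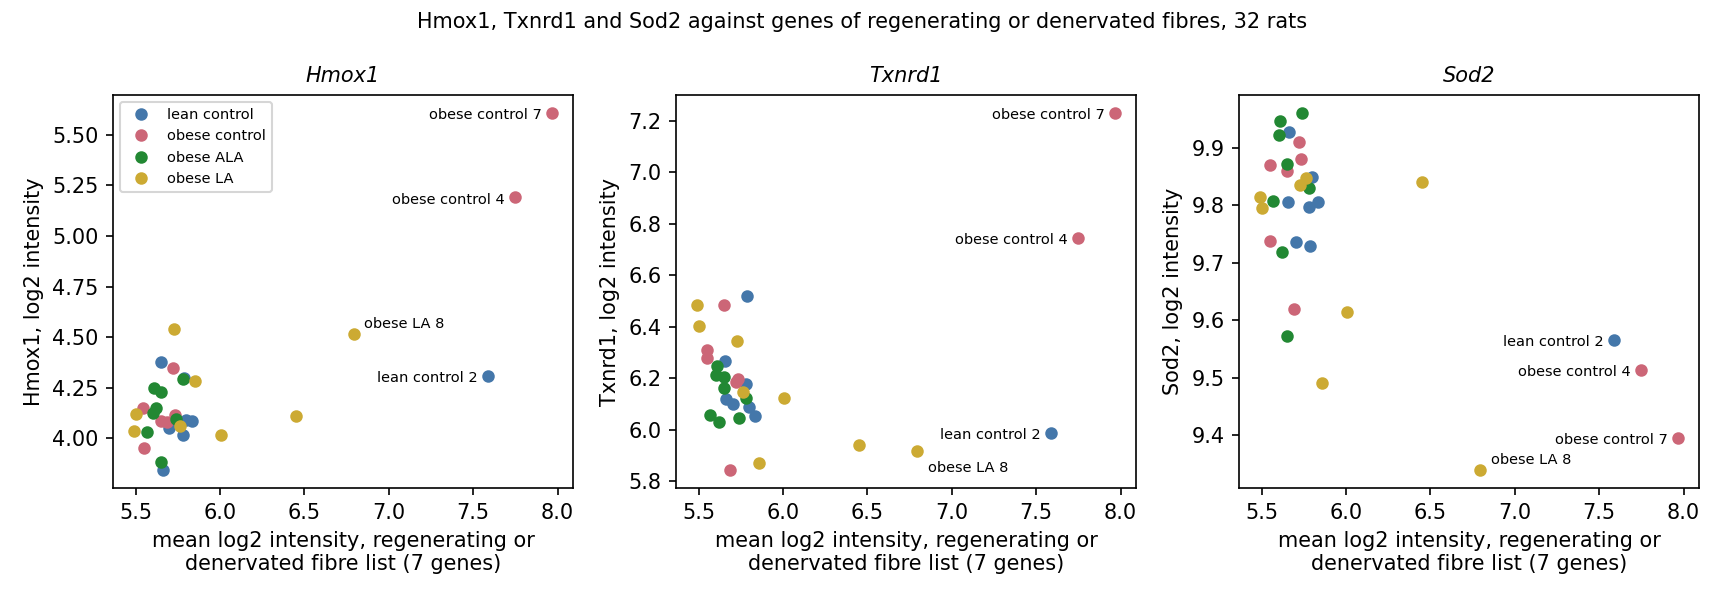
Log2 intensity of Hmox1, Txnrd1 and Sod2 (vertical axes) against the mean log2 intensity of 7 genes of regenerating or denervated fibres (horizontal axis), 1 point per rat coloured by group. Obese controls 4 and 7 lie high on the list and high in Hmox1 and Txnrd1 but low in Sod2, and lean control 2, at 7.59 on the list, has Hmox1 at 4.31 and Txnrd1 at 5.99.

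Nqo1 encodes a quinone reductase that is widely used as a read-out of NRF2 activity. Its lowest, median and highest values were 5.59, 5.89 and 6.71 in lean controls and 5.68, 6.07 and 6.55 in obese controls. They were 5.56, 5.87 and 6.38 in ALA rats and 5.48, 5.90 and 6.34 in LA rats. The 4 ranges overlap over most of their length, and the highest value of the study, 6.71, belonged to lean control 3. Obese controls exceeded lean controls by 0.13 (95% interval -0.16 to 0.43; adjusted p = 0.712). The differences from obese controls were -0.21 with ALA (-0.51 to 0.083; adjusted p = 0.67) and -0.18 with LA (-0.48 to 0.12; adjusted p = 0.877).

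Gclc and Gclm encode the catalytic and the modifier subunit of glutamate-cysteine ligase, the rate-limiting enzyme of glutathione synthesis. Gclc had its lowest, median and highest values at 5.52, 5.84 and 6.23 in lean controls and at 5.78, 5.95 and 6.22 in obese controls. In ALA rats they were 5.56, 5.80 and 6.02, and in LA rats 4.98, 6.01 and 6.44. LA rats thus held both the lowest and the highest Gclc of the study, with an SD of 0.42 against 0.16 to 0.22 in the other groups. Obese controls exceeded lean controls by 0.098 in Gclc (95% interval -0.16 to 0.35; adjusted p = 0.761). The Gclc differences from obese controls were -0.18 with ALA (-0.43 to 0.078; adjusted p = 0.687) and -0.065 with LA (-0.32 to 0.19; adjusted p = 0.952).

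Gclm, whose window holds the core shown above, had lowest, median and highest values of 6.83, 7.13 and 7.52 in lean controls. They were 6.74, 7.04 and 7.86 in obese controls, 6.84, 7.02 and 7.18 in ALA rats and 6.72, 6.96 and 7.63 in LA rats. The lean median was the highest of the 4. The obese minus lean difference was -0.046 (95% interval -0.30 to 0.21; adjusted p = 0.9), and it was -0.21 without obese controls 4 and 7 (-0.43 to 0.020; adjusted p = 0.455), of which rat 4 held the study's highest value. The differences from obese controls were -0.11 with ALA (-0.36 to 0.15; adjusted p = 0.827) and -0.080 with LA (-0.33 to 0.17; adjusted p = 0.936). The 2 subunits varied little together between rats of a group (r = 0.167 over 32 arrays).

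Sod1 and Sod2 encode the cytosolic copper-zinc and the mitochondrial manganese superoxide dismutase. Sod1 had lowest, median and highest values of 9.63, 9.96 and 10.19 in lean controls and 9.62, 9.95 and 10.22 in obese controls. They were 9.78, 9.93 and 9.99 in ALA rats and 9.68, 9.94 and 10.03 in LA rats. The 4 medians lay between 9.93 and 9.96, and the ALA rats spread least, with an SD of 0.067. The obese minus lean difference in Sod1 was 0.023 (95% interval -0.13 to 0.18; adjusted p = 0.92). The differences from obese controls were -0.058 with ALA (-0.21 to 0.098; adjusted p = 0.848) and -0.10 with LA (-0.26 to 0.052; adjusted p = 0.858).

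Sod2 had lowest, median and highest values of 9.57, 9.80 and 9.93 in lean controls and 9.39, 9.80 and 9.91 in obese controls. They were 9.57, 9.85 and 9.96 in ALA rats and 9.34, 9.81 and 9.85 in LA rats. The obese minus lean difference was -0.054 (95% interval -0.22 to 0.11; adjusted p = 0.807). The differences from obese controls were 0.11 with ALA (-0.060 to 0.27; adjusted p = 0.712) and -0.026 with LA (-0.19 to 0.14; adjusted p = 0.977). The lowest Sod2 of the study was that of LA rat 8, at 9.34, followed by obese control 7 at 9.39, LA rat 7 at 9.49, obese control 4 at 9.51, lean control 2 at 9.57 and ALA rat 3 at 9.57. These include the 4 rats highest on the list of 7 regenerating or denervated fibre genes, which are obese controls 7 and 4, lean control 2 and LA rat 8, and the 2 rats highest on the tendon list, LA rats 7 and 8, at means of 8.69 and 7.16. Within groups, Sod2 had r = -0.667 with the fibre list and -0.652 with the tendon list over 32 arrays, and -0.489 and -0.687 over the 30 arrays other than obese controls 4 and 7, given as a description. The points share the array, and few rats lie at the high end of either list. The part of other fibres and tissue in the Sod2 values was not tested.

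Cat encodes catalase, the peroxisomal enzyme that splits hydrogen peroxide to water and oxygen. Its lowest, median and highest values were 10.74, 10.85 and 11.04 in lean controls and 10.78, 11.18 and 11.25 in obese controls. They were 10.75, 11.12 and 11.25 in ALA rats and 10.93, 11.08 and 11.40 in LA rats. All 3 obese medians lay above the highest lean rat, but the groups overlap. Groups that do not overlap at all were found for 0.65% of all genes in obese against lean controls. The means were 10.88 ± 0.11 in lean controls, 11.08 ± 0.18 in obese controls, 11.06 ± 0.18 in ALA rats and 11.10 ± 0.16 in LA rats (SD, n = 8 each).

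The obese minus lean difference in Cat was 0.20, or 1.15-fold (95% interval 0.035 to 0.36; limma adjusted p = 0.223). It did not pass after adjustment. Unlike those of Hmox1 and Txnrd1, it was no smaller without obese controls 4 and 7, at 0.23 (0.059 to 0.40; limma adjusted p = 0.207), and it lay between 0.18 and 0.24 when any 1 of the 32 arrays was left out. Against lean controls the difference was 0.18 in ALA rats (0.014 to 0.34; limma adjusted p = 0.456). In LA rats it was 0.22 (0.056 to 0.39; limma adjusted p = 0.18). The 3 comparisons share the lean controls. Against obese controls neither oil moved Cat past the test, with -0.021 for ALA (-0.19 to 0.14; adjusted p = 0.966) and 0.021 for LA (-0.14 to 0.19; adjusted p = 0.981). Slow-fibre genes, whose fibres are rich in mitochondria, differed in the same contrast, in the direction opposite to Cat. Of 7 measured, 6 were called lower in obese than in lean controls, where 1.76% of all genes were called in either direction. The list mean was 9.52 ± 0.23 in lean and 7.92 ± 0.43 in obese controls. The part of slow fibres in the Cat difference was not tested.

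The intervals give the changes that 8 rats per group leave possible. With both oils together against the obese controls, the upper end of the 95% interval was 1.01-fold for Hmox1, 1.04-fold for Nqo1, 1.07-fold for Gclc and 1.09-fold for Gclm. It was 0.967-fold for Txnrd1, 1.04-fold for Sod1, 1.13-fold for Sod2 and 1.10-fold for Cat. These ends were set partly by obese controls 4 and 7. Without them they were 1.16-fold for Hmox1, 1.13-fold for Nqo1, 1.15-fold for Gclc, 1.20-fold for Gclm and 1.07-fold for Txnrd1. For Sod1, Sod2 and Cat they were then 1.10-fold, 1.07-fold and 1.09-fold, higher than with all rats only for Sod1. For obese against lean controls, the upper ends with all rats ran from 1.08-fold for Sod2 to 1.55-fold for Hmox1. These are folds of RMA intensities, which understate changes of dim genes, and Hmox1, with a mean of 4.23, was dim, since the array medians were 3.83 to 3.99.

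Between the oils, which differ in the main polyunsaturated fatty acid they supply, no gene of the 8 differed past the test. The largest of the 8 differences was in Sod2, at 0.13 higher with ALA (95% interval -0.034 to 0.30; limma adjusted p = 0.748). The others, as ALA minus LA, were -0.078 for Hmox1, -0.034 for Nqo1, -0.11 for Gclc, -0.027 for Gclm, -0.019 for Txnrd1, 0.046 for Sod1 and -0.042 for Cat. The intervals reached from 0.755-fold at the lowest for Hmox1 to 1.23-fold at the highest for Sod2, and were narrower for other genes, at 0.866 to 1.09-fold for Cat and 0.927 to 1.15-fold for Sod1. Against lean controls, differences other than Cat ran from -0.15 in Gclm to 0.052 in Sod2 for ALA rats, and from -0.13 in Gclm to 0.076 in Hmox1 for LA rats.

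**Figure D3:**
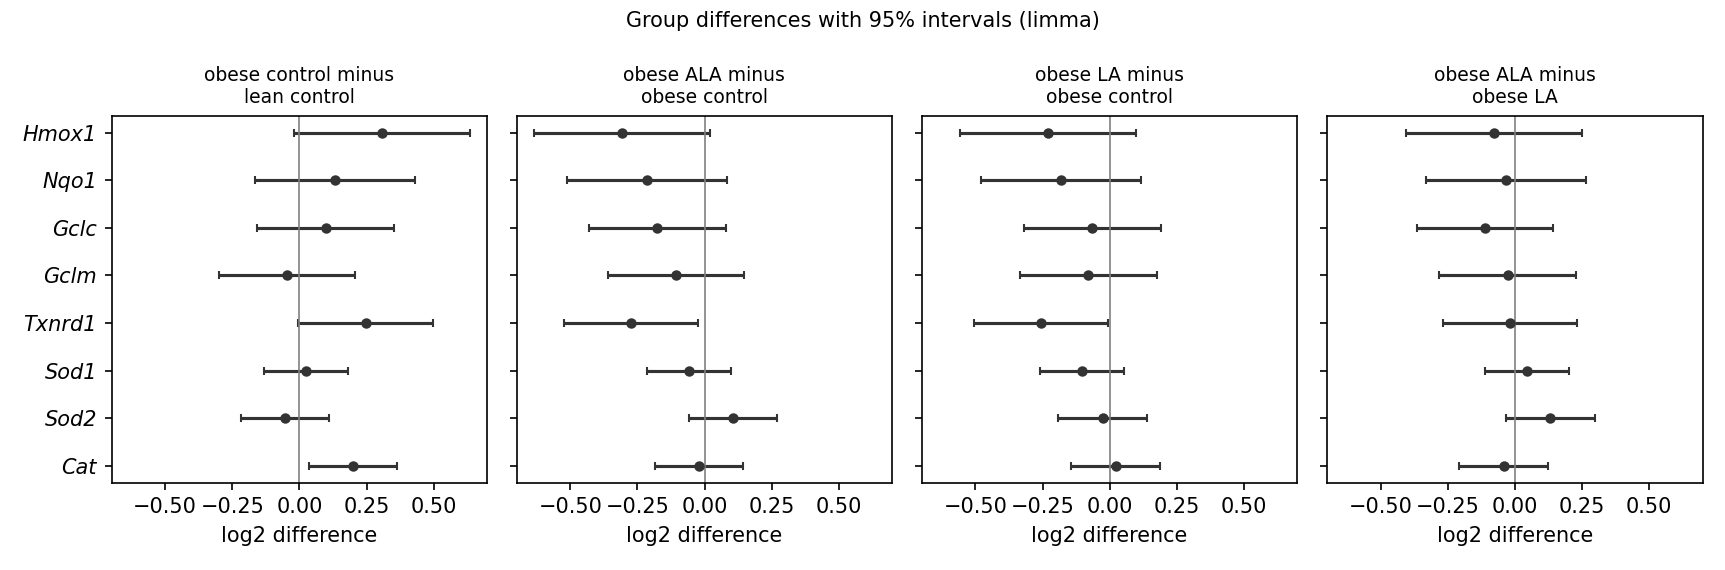
Group difference in log2 intensity (points) with its 95% interval from limma (bars) for the 8 genes in 4 comparisons; the vertical line marks 0. For Cat the obese minus lean interval (0.035 to 0.36), and for Txnrd1 the intervals of both oils against obese controls, leave out 0, and none of these passed after adjustment over 10918 genes.

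As a group, the 8 genes did not move one way in all comparisons. In obese against lean controls 6 of the 8 differences were above 0, against 50.6% of all genes, with a median of 0.12 against 0.0019 over all genes. Without obese controls 4 and 7 the median was 0.030. Against the obese controls, 1 of 8 was above 0 with ALA and 1 with LA, against 47.8% and 49.2% of all genes, with medians of -0.14 and -0.092. Without those 2 rats, 4 of 8 were above 0 with ALA and 3 of 8 with LA, and the medians were -0.020 and -0.018. The 2 oil comparisons and the obesity comparison share the obese controls, so 2 high rats in that group lift the first and lower the others together.

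Between rats of the same group, the NRF2 targets varied together to different degrees. Over 32 arrays with group means removed, r for the pairs among Hmox1, Nqo1, Gclc, Gclm and Txnrd1 ran from 0.167 for Gclc and Gclm and 0.183 for Nqo1 and Gclm to 0.636 for Hmox1 and Txnrd1. The last value rested on obese controls 4 and 7, and over the other 30 arrays it was -0.0052. For Hmox1 and Gclm r was 0.423 over all arrays and -0.048 over the 30. It was 0.183 and 0.0037 for Nqo1 and Gclm, and 0.167 and 0.036 for Gclc and Gclm. Smaller falls were those of Hmox1 and Gclc (0.361 to 0.277), Hmox1 and Nqo1 (0.319 to 0.209) and Gclc and Txnrd1 (0.390 to 0.304). For Nqo1 and Txnrd1 r was 0.534 over all arrays and 0.564 over the 30, for Gclm and Txnrd1 0.516 and 0.371, and for Nqo1 and Gclc 0.497 and 0.463. Hmox1 and Sod2 had r = -0.591 over all arrays and -0.316 over the 30. For Txnrd1 and Sod2 the sign changed, from -0.112 over all arrays to 0.468 over the 30. Cat varied with the list of 8 peroxisomal genes, at r = 0.651 over all arrays and 0.656 over the 30. For Hmox1 and that list r was -0.574 over all arrays and 0.053 over the 30. The points of such correlations share the array, its normalisation and the makeup of the tissue piece.

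The genes whose pattern was most like each of the 8, by the same r, differed between them. Hmox1 was matched best by Slc2a1, the basal glucose transporter (r = 0.895), P2rx5 (0.895) and Tubb6 (0.885), but r was 0.523, 0.532 and 0.429 over the 30 arrays other than obese controls 4 and 7. For Txnrd1 they were Aspscr1 (0.803), Actr1a (0.777) and Cdv3 (0.777), for Nqo1 Tom1l1 (0.679), Tspan33 (0.652) and C20h6orf89 (0.645), and for Gclc Alpk3 (0.741), Ddx23 (0.711) and Ncoa5 (0.698). Gclm was matched best by Ppp2r3c (0.812), Kpnb1 (0.793) and Cacybp (0.790). Sod1 was matched best by Nagk (0.665), Rdh5 (0.644) and Ugdh (0.641). Sod2, the mitochondrial enzyme, was matched best by the mitochondrial chaperone Hspa9 (0.885), Rpia (0.875) and Atp5f1a, an ATP synthase subunit (0.875). Cat was matched best by the iron exporter Slc40a1 (0.709), by Hadha of mitochondrial fatty acid oxidation (0.672) and by Pex11a of peroxisome division (0.668). Over the 30 arrays r was 0.572, 0.561 and 0.656 for the matches of Txnrd1 and 0.536, 0.541 and 0.511 for those of Sod1. It lay between 0.636 and 0.850 for the matches of Nqo1, Gclc, Gclm, Sod2 and Cat.

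Other genes of these pathways gave 5 calls, all in comparisons with lean controls. They were Ncf1 in obese controls, where 1.76% of all genes were called, and Gpx1 and Ncf1 in ALA rats, where 0.888% were. In LA rats, where 1.62% of all genes were called, they were Txnip and Slc40a1. The oil groups differ from lean controls in genotype, oil and way of feeding together. Against the obese controls 0% of all genes were called with either oil. The regulators of NRF2 were measured in 6 of 10, and 0 were called in any comparison. In obese against lean controls 5 of the 6 differences were above 0, against 50.6% of all genes. Their median was 0.22, and 0.11 without obese controls 4 and 7. The list mixes opposite actions, since KEAP1 marks NRF2 for degradation and small MAF proteins are its partners. The count and the median therefore give no direction for NRF2 activity. Nfe2l2, named here because it encodes NRF2 itself, differed by 0.080 (limma adjusted p = 0.755). Keap1 differed by 0.23 (limma adjusted p = 0.182), and Mafk, a small MAF partner, by 0.22 (limma adjusted p = 0.279). Of 30 genes listed as other NRF2 targets, a list that does not hold Slc40a1 (given below), 17 were measured. Of these, 0 were called in any comparison, and the median obese minus lean difference was 0.097. Among them Tkt, a pentose phosphate enzyme that helps to supply NADPH, differed by 0.34 (limma adjusted p = 0.0788), with means of 5.43 ± 0.10 in lean and 5.77 ± 0.32 in obese controls. It passed the threshold after a second quantile normalisation (0.39, adjusted p = 0.0428). Mgst1, a membrane-bound glutathione transferase that is abundant in liver, differed by 0.91 (limma adjusted p = 0.151), but obese control 5, the rat with hepatocyte transcripts, stood at 9.25 where its group's median was 5.79.

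Of 33 other enzymes and proteins of peroxide removal, 25 were measured. In obese against lean controls 11 were above 0 and 14 below, where 50.6% of all genes were above 0. The median was -0.032, and 0 were called. Gpx1, the cytosolic glutathione peroxidase, had means of 8.59 ± 0.11 in lean controls, 8.23 ± 0.20 in obese controls, 8.16 ± 0.15 in ALA rats and 8.46 ± 0.33 in LA rats. It was lower by 0.43 in ALA rats than in lean controls (limma adjusted p = 0.037). This call was lost when any 1 of 10 single arrays was left out, with adjusted p between 0.0515 and 0.0918. In obese against lean controls Gpx1 differed by -0.36 (limma adjusted p = 0.0625). Txnip, which binds and inhibits thioredoxin and restrains glucose uptake, had means of 10.75 ± 0.090 in lean controls, 10.94 ± 0.35 in obese controls, 11.11 ± 0.15 in ALA rats and 11.20 ± 0.13 in LA rats. It was higher by 0.45 in LA rats than in lean controls (limma adjusted p = 0.012). In obese against lean controls it differed by 0.19 (limma adjusted p = 0.386), and by 0.37 without obese controls 4 and 7, where it passed (adjusted p = 0.00455).

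Among 9 measured genes of metal and haem handling, Slc40a1, or ferroportin, the iron exporter, was called. Its means were 5.51 ± 0.24 in lean controls, 6.12 ± 0.27 in obese controls, 6.12 ± 0.55 in ALA rats and 6.47 ± 0.29 in LA rats. It was higher by 0.96, or 1.95-fold, in LA rats than in lean controls, which differ in genotype as well as diet (limma adjusted p = 0.00133). No single array ended that call. The differences of obese controls and of ALA rats from lean controls were 0.61 and 0.62 (limma adjusted p = 0.052 and 0.0707). Ferroportin is also abundant in macrophages, whose 12 measured genes had a mean of 5.45 ± 0.14 in lean controls and 5.89 ± 0.32 in LA rats. The part of macrophages in the Slc40a1 difference was not tested.

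Among 7 measured genes of oxidant production, Ncf1, a subunit of the phagocyte NADPH oxidase, was called. It was lower by 0.52 in obese than in lean controls (limma adjusted p = 0.0245) and by 0.52 in ALA rats than in lean controls (limma adjusted p = 0.0397). Its means were 5.90 ± 0.17 in lean controls, 5.38 ± 0.21 in obese controls, 5.38 ± 0.25 in ALA rats and 5.53 ± 0.38 in LA rats. The first call was lost without lean control 4 (adjusted p = 0.0584), without obese control 4 (0.0617) and without obese controls 4 and 7 (0.113). The second was lost when any 1 of 11 single arrays was left out, with adjusted p between 0.0616 and 0.103, and after each other scaling tried. The selenoprotein synthesis list, with 5 genes measured, also holds the selenoproteins Selenon and Selenow. That list, aldehyde removal, with 7 genes measured, and the peroxisome, with 8, held 0 called genes in any comparison. Of the peroxisomal genes 7 of 8 were above 0 in obese against lean controls, against 50.6% of all genes, with a median of 0.099. Pex11a differed by 0.30 (limma adjusted p = 0.323). The mean over the peroxisomal list was 5.80 and 5.49 in obese controls 4 and 7 and 5.92 to 6.05 in the other 6.

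**Figure D4:**
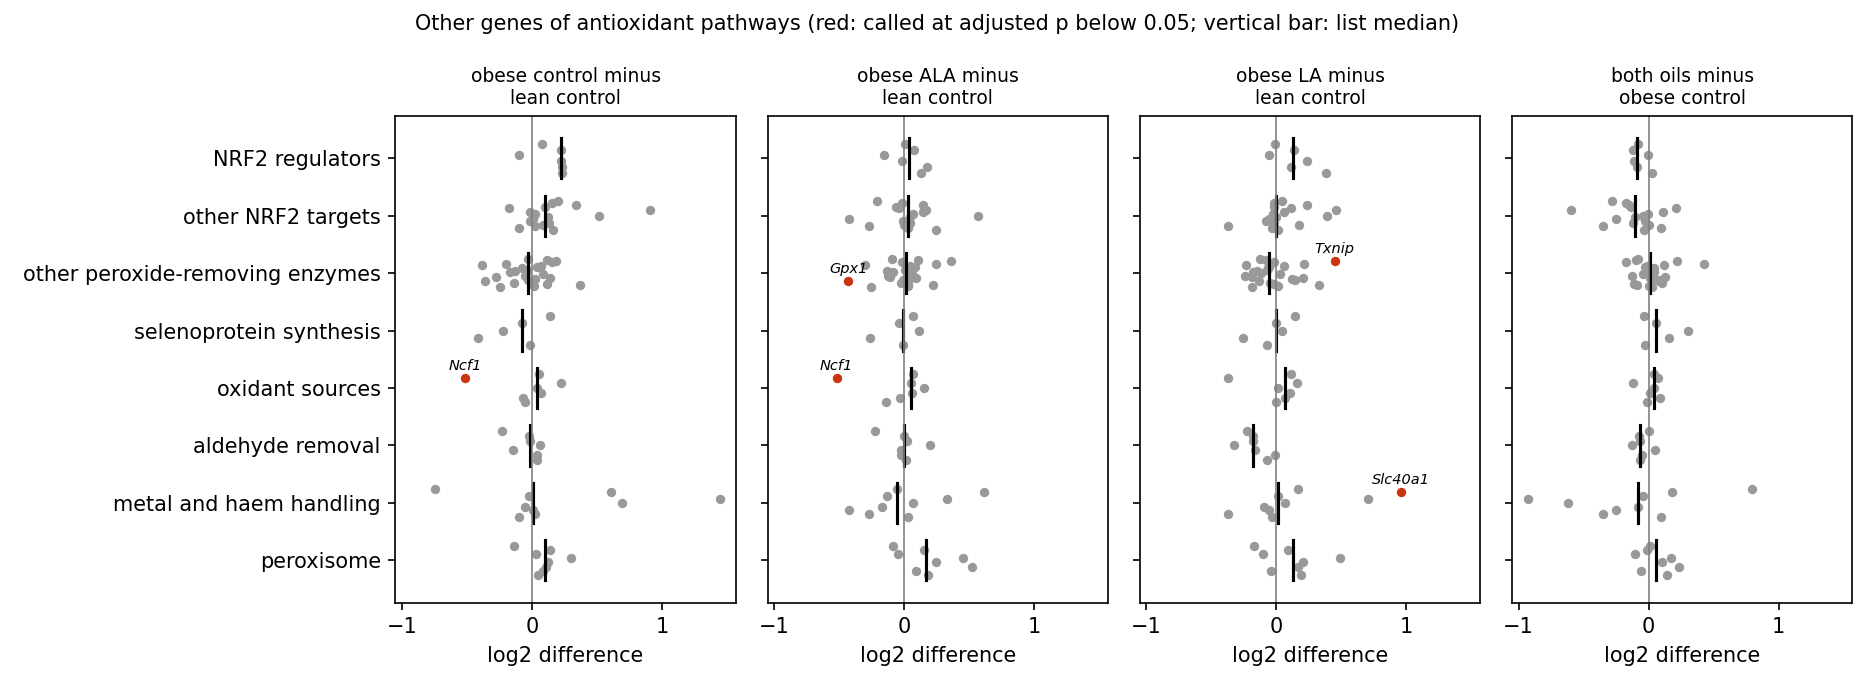
Log2 difference (horizontal axis) of every measured gene of 8 further lists in 4 comparisons; grey points were not called, red points were called at an adjusted p below 0.05, and black bars give each list's median. Calls stand only in comparisons with lean controls, for Gpx1, Txnip, Ncf1 and Slc40a1.

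The mean over 7 skeletal muscle genes lay between 12.15 and 12.26 on all 32 arrays, which bears on skeletal muscle as such and not on the red portion. The slow-fibre genes given above differed between lean and obese controls. Any pair of arrays correlated at 0.966 to 0.992, and 0 pairs held the same values. Within a group the labels tell rats apart only by number, so the spread between arrays is taken as that between rats. The number of arrays limits the precision, with a median standard error of 0.0875 log2 units for a difference of 2 groups.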

How the data were processed

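RNA of 32 rats was measured on 1 Affymetrix array each, labelled from 100 ng of total RNA per the labels' protocols. The authors deposited log2 intensities from RMA (background correction, quantile normalisation, median polish), per the submitters' processing notes; its version is not given in the sources used here. Such values lose any shift common to most genes and compress differences of dim features. Of 36685 features, 14824 carried 1 gene symbol, 829 several and 21032 no name in the annotation used here. Per gene the feature with the highest mean was kept (14557 genes), and the dimmest 25%, below 3.35, were left out, leaving 10918 genes. A mean for each of the 4 groups was fitted with limma 3.58.1 in R 4.3.3, over 28 residual degrees of freedom and with two-sided p-values adjusted by Benjamini-Hochberg in each of 7 comparisons. The fit was tested on simulated data. Tables and figures were made with Python 3.11.15, pandas 2.3.3, numpy 2.4.6 and matplotlib 3.10.9.

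The members, the gene lists, the rats left out and the tests were chosen with earlier results of these data known. All 10 listed genes were to be named, and in each further list every called gene or, where none was called, the 2 with the smallest p in obese against lean controls; for each of the 8 genes measured, the 3 genes of highest within-group r were named, passing over provisional symbols (LOC, RGD, MGC, AABR), olfactory and vomeronasal receptors (Olr, Vom) and small RNAs (Mir, Snor, U with digits). Replicate numbers were not used as pairs: over 48 pairs of rats with the same number, deviations from group means had a mean r of 0.033, and 17 pairs exceeded 0.1. Alternatives were other filters, every feature, a second quantile normalisation, median centring, a robust trended prior, weights per array, a fit of the compared groups alone, a replicate block, a threshold of 0.1, and leaving out single rats or the rats named.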

Additional observations from a re-analysis of the deposited data

Results flagged for a closer look

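Of 32 sets of 8 values (8 genes in 4 groups), 2 held a rat far from the others by Dixon's criterion, where chance flags about 1 in 20. Nqo1 in lean control 3 was 6.71, with the next rat of its group at 6.10. Gclc in LA rat 1 was 4.98, with the next lowest of its group at 5.76. The high Hmox1 and Txnrd1 values of obese controls 4 and 7 do not meet this criterion. It takes only the gap between the extreme rat and the next, so 2 high rats in a group can hide each other. It therefore cannot decide whether these 2 rats stand apart.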

How the results depend on the processing

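None of the 8 genes was called in any of the 7 comparisons under any alternative run, including each of the 32 arrays left out in turn and a threshold of 0.1. The threshold of 0.1 was a run of its own and was not joined to the other alternatives. With array weights, Cat in obese against lean controls had a limma adjusted p of 0.0890, above 0.05 but below 0.1. Hmox1 has no value with the dimmest 50% of genes left out. Differences that changed sign were all uncalled, and the cause was not tested beyond the arrays left out. With array weights these were, for obese minus lean controls, Sod1 -0.071 and Sod2 0.0092, for ALA minus obese controls Sod1 0.023, for LA minus obese controls Gclc 0.036, Gclm 0.019 and Cat -0.021, for LA minus lean controls Txnrd1 0.040, and for both oils Cat -0.029. After a second quantile normalisation they were, for ALA minus lean controls, Hmox1 0.0072 and Txnrd1 0.0041, for LA minus lean controls Txnrd1 0.026, and for both oils Cat -0.027. Without obese control 5, Sod1 was -0.00050 for obese minus lean controls. Without obese controls 4 and 7 they were, for obese minus lean controls, Hmox1 -0.012, Sod1 -0.053 and Sod2 0.036, for ALA minus obese controls Hmox1 0.011, Gclm 0.052 and Sod1 0.018, for LA minus obese controls Hmox1 0.089, Gclc 0.010, Gclm 0.079 and Cat -0.0086, and for both oils Hmox1 0.050, Gclm 0.066, Sod2 -0.050 and Cat -0.030. Without 6 arrays (ALA rat 3, LA rats 7 and 8, and obese controls 4, 5 and 7) they were, for obese minus lean controls, Hmox1 -0.0041, Gclc -0.00053, Sod1 -0.10 and Sod2 0.075, for ALA minus obese controls Gclm 0.021, Sod1 0.073 and Cat 0.014, for LA minus obese controls Hmox1 0.018, Gclm 0.16, Sod1 0.011 and Cat -0.0076, for ALA minus LA Cat 0.022, for LA minus lean controls Gclc -0.032, Txnrd1 0.077 and Sod2 0.014, and for both oils Hmox1 0.0034, Gclm 0.090, Sod1 0.042 and Sod2 -0.024.

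When 1 array was left out, differences that changed sign ranged, for obese minus lean controls, from -0.15 to 0.0079 in Gclm and -0.024 to 0.075 in Sod1. For ALA minus obese controls Cat ranged from -0.064 to 0.023. For LA minus obese controls the ranges were Cat -0.021 to 0.047, Gclc -0.14 to 0.066, Gclm -0.16 to 0.027 and Sod2 -0.073 to 0.025. For ALA minus LA they were Cat -0.069 to 0.0019, Gclm -0.073 to 0.058, Nqo1 -0.11 to 0.028 and Txnrd1 -0.059 to 0.029. Against lean controls they were, in ALA rats, Hmox1 -0.043 to 0.034, Nqo1 -0.15 to 0.026 and Txnrd1 -0.053 to 0.022, and in LA rats Gclc -0.043 to 0.16, Nqo1 -0.11 to 0.060 and Txnrd1 -0.057 to 0.041. For both oils they were Cat -0.042 to 0.025, Gclm -0.15 to 0.013 and Sod2 -0.0075 to 0.066.

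The number of all genes called moved more. In obese against lean controls it was 192, but 316 with array weights and 354 at a threshold of 0.1. In ALA rats against lean controls it was 97, but 313 with array weights, 252 with only the groups compared, 171 at 0.1, 155 without obese controls 4 and 7, 263 without 6 arrays, and 50 to 64 without lean control 4, 6 or 8 or ALA rat 4, 5, 6 or 7 alone. In LA rats against lean controls it was 177, but 369, 320, 294 and 317 with array weights, at 0.1, without the 2 and without the 6 arrays, and 110 without lean control 6. Of the comparisons with 0 called, 1 gene was called in LA minus obese controls and 1 in ALA minus LA without the filter or with every feature tested, and 1 in ALA minus LA without obese controls 4 and 7. With the replicate block, whose numbers do not pair the rats, 245 genes were called in obese against lean controls, none of them among the 8, and Hmox1, Txnrd1 and Cat had adjusted p of 0.371, 0.369 and 0.237 in limma.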

Other observations

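Markers of the other cells and fibres in these samples gave the following values. Of the slow-fibre genes, Myh7, Tnnc1 and Tnnt1 were lower in obese than in lean controls by log2 differences of -2.55, -2.47 and -2.52, Atp2a2 by -1.58, Casq2 by -1.20 and Myl3 by -0.69, all called by limma with adjusted p of at most 0.0103. Of the endothelial and stromal genes, Cd34 (-0.72), Cdh5 (-0.53), Tie1 (-0.57) and Col3a1 (-0.81) were called lower in obese than in lean controls, and Cdh5 and Tie1 were not without obese controls 4 and 7 (limma adjusted p = 0.15 and 0.118). Egfl7 was called lower in ALA and in LA rats than in lean controls. Lyz2 was called higher in obese than in lean controls, by 1.00, and by 0.60 without obese controls 4 and 7, where it did not pass (limma adjusted p = 0.12). The macrophage genes C1qb and Csf1r and the adipocyte gene Fabp4 were called higher in LA rats than in lean controls. Myod1, a myogenic regulator, was called lower in obese than in lean controls, by -0.83.

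Lists without a called gene are given by the pair with the smallest p in obese against lean controls. The log2 differences were -0.41 for Selenon and -0.23 for Selenow of the selenoprotein synthesis list. They were -0.23 for Aldh9a1 and -0.14 for Akr1b1 of aldehyde removal, and 0.14 for Pex5 of the peroxisome. They were -0.054 for Tnnt3 and -0.052 for Acta1 of skeletal muscle, -0.19 for Actn3 of fast fibres, 0.22 for Csf3r and -0.027 for Elane of neutrophils, and 0.37 for Fmod and 0.10 for Scx of tendon. Slc4a1 and Ahsp of red cell precursors differed by 0.88 and 0.59, Ttr and Tat of hepatocytes by 0.75 and 0.31, and Sox10 and S100b of Schwann cells by 0.077 and 0.053. None of these passed after adjustment in limma.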
